A study of Mus musculus with 32 samples.

Results

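The genes described here encode the vacuolar ATPase and other proteins of the lysosomal membrane. The vacuolar ATPase is a rotary pump in which the V1 sector in the cytosol splits ATP and the V0 sector in the membrane carries protons into the lysosome. The acid that it makes is needed by the hydrolases inside, and lysosomal glycoproteins, ion channels and transporters share the same membrane. Microglia are the phagocytes of the brain and digest in lysosomes what they take up. Members were the protein-coding genes whose symbols start with Atp6v, plus Atp6ap1, Atp6ap2, Tcirg1, Lamp1, Lamp2, Scarb2, Mcoln1, Ctns, Cln3, Tmem192, Laptm4a, Laptm4b, Laptm5, Ostm1, Clcn7, Lmbrd1 and Sidt2. They came to 36 of the 18588 genes of the table: 9 V0 subunits, 10 V1 subunits, 2 accessory subunits, 3 membrane glycoproteins and receptors, 7 channels and transporters, and 5 LAPTM and other proteins. Atp6v1g3, Atp6v0a4, Atp6v1b1 and Atp6v1e2 were not analysed here.

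RNA was sequenced from forebrain cells of female mice that had been bound to CD11b MicroBeads, labelled microglia, with the forebrains of several mice pooled in each library. In rTg4510 mice neurons of the forebrain make P301L mutant human tau, because 1 transgene holds the tau and a second one, under the CaMKIIα promoter, makes the transactivator that switches it on unless tetracyclines are given. The WT mice, labelled 129/FVB F1, were littermates without these transgenes. At 2, 4, 6 and 8 months 4 libraries were made per genotype, 32 in all. The authors left out 4 of them after quality control (in both genotypes, the 4-month replicate 3 and the 8-month replicate 4), so that 28 were fitted, with 4 per group at 2 and 6 months and 3 per group at 4 and 8 months. Values are the authors' log2 gene signals, with the same median in each library. Read totals are not in the table, so the depth behind each signal cannot be read from it. The signals are not per length, so levels were not compared between members. Markers named as most abundant or as leading a list were picked by signal alone, and another marker can lie higher in some groups. Among neuronal markers, the mean of Stmn2 lay above that of Snap25 in rTg4510 at 2, 4 and 8 months. The lowest signal in a library lay between 1.23 and 1.92, with a median of 1.57 over the 28 libraries.

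Of the 8 microglial markers listed, 8 were in the table, with Cx3cr1 the most abundant. Their summed log2 level at 4 to 8 months ran from 14.70 through a median of 14.97 to 15.13 in 10 WT libraries and from 14.39 through 14.63 to 14.81 in 10 rTg4510 libraries. In bulk samples, fewer cells of a type and less RNA per cell cannot be told apart. The 5 neutrophil markers, led by Ngp, summed to between 8.80 and 10.21 (median 9.87) in WT and between 7.18 and 8.89 (median 7.94) in rTg4510 libraries at these ages, and 5 of 5 were called lower at 6 and at 8 months. Another quantity that moved with genotype was the share of the linear signal held by the 10 highest genes, 42.4% to 46.4% in WT and 30.3% to 34.2% in rTg4510 libraries at 4 to 8 months. At 2 months that share was 39.0% to 41.8% in WT and 35.5% to 40.1% in rTg4510 libraries. The part of these shifts in the results was not tested, except by quantile normalization of the libraries, read for the members and the paralog pairs. For these it is given where it ended a call or turned a direction. Calls of markers and of the other gene lists are given in the deposited scaling alone.

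Markers of some other cells were read in the same way. Of 8 neuronal markers 3 were in the table, led by Snap25, which was called lower at 6 months, and their summed level had medians at 4 to 8 months of 5.77 in WT and 5.05 in rTg4510 libraries. The 5 astrocyte markers, led by Slc1a3, had medians of 10.24 and 9.64, with Gfap called higher at 6 and 8 months and 2 and 3 others called lower. The 4 endothelial markers, led by Cldn5, had medians of 7.48 and 7.09, with Flt1 called higher and Pecam1 lower at 4, 6 and 8 months, and Vwf lower at 6 months. The 4 markers of border macrophages, led by Mrc1, had medians of 10.31 and 9.95, with 1 called lower at 6 months, Lyve1. The 3 monocyte markers, led by Ccr2, had medians of 7.07 and 6.87, with 1 called lower at 4 months and 2 at 6 months. Of 4 lymphocyte markers 3 were in the table, led by Cd79a, which was called lower at 4 months, with medians of 5.58 and 5.04. The part of these cells in the results was not tested.

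Each age asked how the members differed between rTg4510 and WT microglia. At 2 months no member passed both thresholds for a call. From 4 months on, the proteolipid ring subunit Atp6v0c, the catalytic V1 subunit Atp6v1a, its partner Atp6v1b2, the rotor subunit Atp6v1f and the glycoprotein Lamp1 were higher in rTg4510 microglia by 1.52 to 2.42 fold in 3 to 4 libraries per group in the deposited scaling. With quantile normalization Lamp1 was under 1.5 fold at each age and Atp6v1f at 8 months. When the excluded libraries were fitted too, Atp6v1f turned to -0.07 on the log2 scale at 4 months and did not pass the FDR at 6 and 8 months. Atp6v0d2 passed both thresholds at the same ages, but its WT libraries were near the lowest signal of the table, and its values are given as a description. Atp6v0a2, an a subunit isoform, was lower, by 1.64 fold at 6 months and 1.65 fold at 8 months.

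A gene was called when limma gave a Benjamini-Hochberg false discovery rate (FDR, over all 18588 genes) under 0.05 and the groups differed by more than 1.5 fold. At 2 months 0 of 36 members were called in limma in either direction, where 1.58% of all genes were called higher and 0.403% lower. At an unadjusted p under 0.05 limma gave 8 members higher and 6 lower at that age, beside 11.1% and 5.36% of all genes. At 4 months 6 members were called higher (16.7%) and 0 lower in limma, against 9.47% and 4.33% of all genes. Members lower at 4 months with an unadjusted p under 0.05 numbered 1, Atp6v0a2, beside 15.3% of all genes. At 6 months 8 members (22.2%) were called higher and 1 lower, against 11.3% and 8.54% of all genes. At 8 months the calls were 7 higher (19.4%) and 1 lower, against 10.5% and 5.37%. Among the 13847 protein-coding genes, 7.58%, 9.19% and 8.69% were called higher at 4, 6 and 8 months. With quantile normalization 5, 5 and 4 members were called higher at 4, 6 and 8 months, beside 8.84%, 10.7% and 10.4% of all genes. Without Atp6v0d2, which was near the floor in 5 of 8 groups and may have passed the authors' exon filter only through libraries where it was high, the higher calls were 5, 7 and 6 of 35.

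By FDR under 0.05 alone the members were 3 higher and 0 lower at 2 months, where 4.76% of all genes were higher and 1.27% lower. The 3 were Atp6v1c1, Atp6v1g1 and Lamp1. At 4 months 15 were higher and 1 lower (14.1% and 9.1% of all genes). At 6 months 21 were higher and 2 lower (19.1% and 14.9%), and at 8 months 17 were higher and 1 lower (16% and 9.78%). After quantile normalization the FDR-alone counts were 2, 14, 19 and 15 higher, beside 3.96%, 12.9%, 17.3% and 15.3% of all genes, and 2, 2, 2 and 3 lower, beside 2.12%, 11.1%, 15.9% and 13%. They were 0, 12, 14 and 11 higher with all 32 libraries, beside 1.4%, 13%, 12% and 11.4% of all genes, and 0, 2, 1 and 1 lower, beside 0.291%, 8.86%, 8.04% and 6.49%. The median log2 difference of the members was 0.22 at 4 months, 0.31 at 6 months and 0.25 at 8 months, beside -0.04, -0.04 and -0.01 over all genes. With quantile normalization the members' medians were 0.16, 0.24 and 0.25.

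Groups whose libraries did not overlap gave 5 members higher and 2 lower at 2 months, beside 7.49% and 3.51% of all genes. At 4 months they were 21 and 1, beside 19.1% and 17.5%. At 6 months they were 19 and 2, beside 18.2% and 14.6%. At 8 months they were 18 and 2, beside 21.2% and 15.5%. The lower members at 2 months were Scarb2 and Laptm4a, and those at 8 months were Atp6v0a2 and Atp6v1g2.

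**Figure D1:**
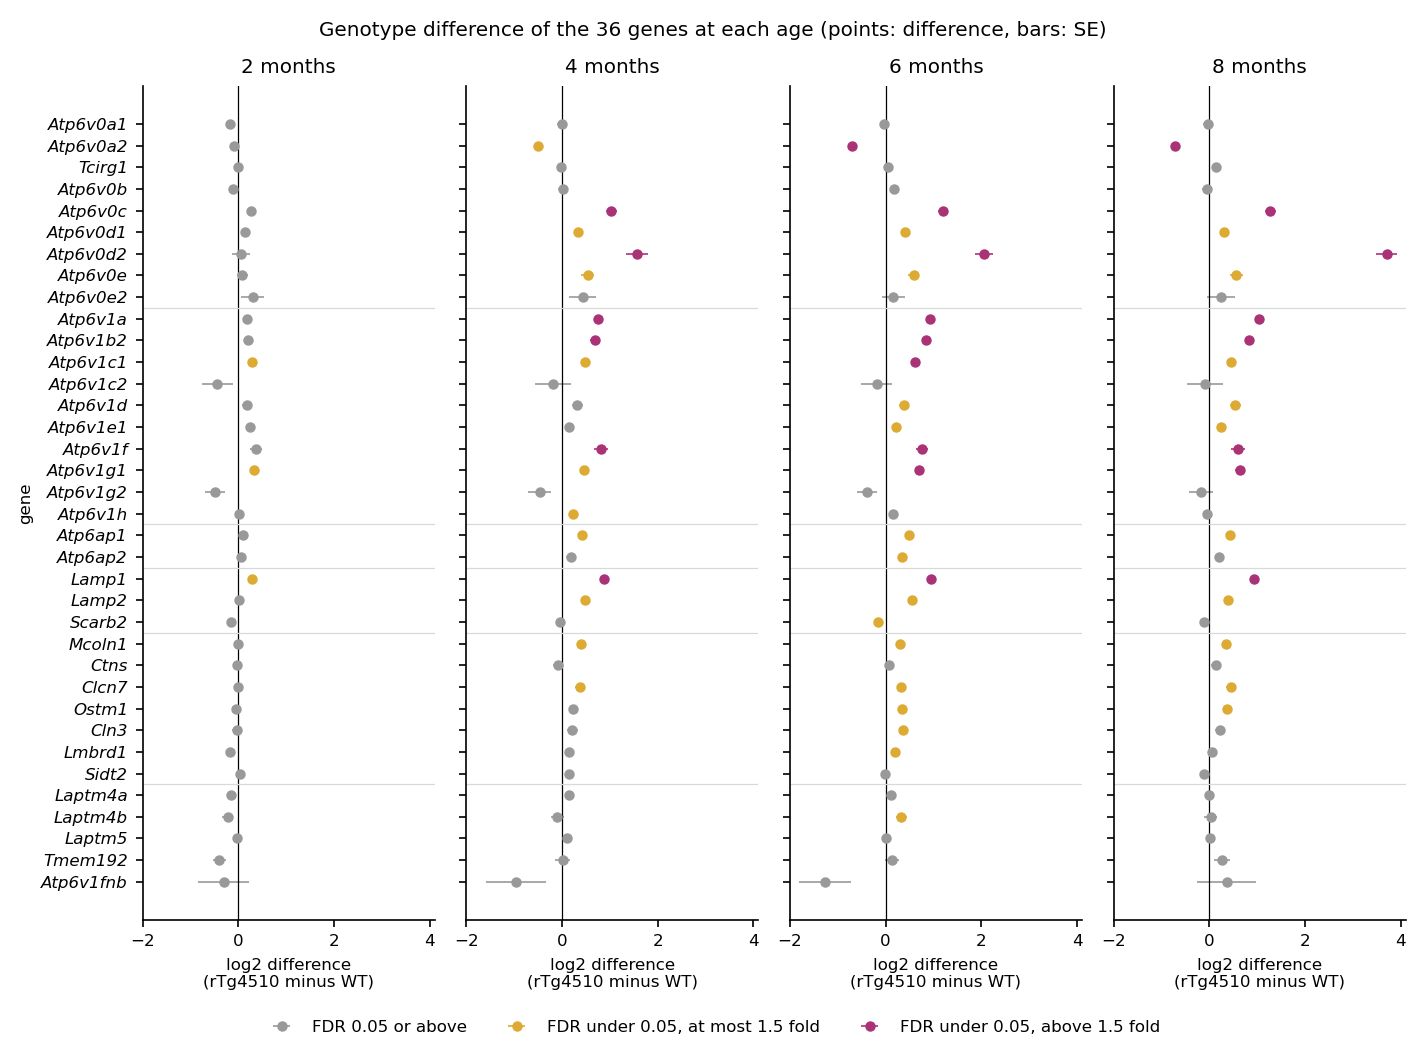
Log2 difference between rTg4510 and WT microglia (x axis, points, with bars for the SE from limma) of each of the 36 members (y axis, by role) at 2, 4, 6 and 8 months, coloured by FDR and fold. At 6 months 8 members were called higher, among them Atp6v0d2 against WT libraries near the floor, and Atp6v0a2 lower. Of all genes 11.3% were called higher and 8.54% lower. With quantile normalization 5 were called higher, beside 10.7% of all genes, while Lamp2 turned from 0.39 to -0.03 at 8 months.

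The V0 sector sits in the membrane, where a ring of c subunits turns against the a subunit. Of its 9 subunits in the table, 2 were called higher at 6 months, Atp6v0c and, against WT libraries near the floor, Atp6v0d2, and 1 lower, Atp6v0a2. Of all genes 11.3% were called higher and 8.54% lower at that age. By FDR alone 4 were higher at 6 months, with Atp6v0d1 and Atp6v0e in addition, beside 19.1% of all genes.

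Atp6v0c (Entrez 11984, chr17:24163865-24169678, GRCm38.p6) encodes the c subunit, the proteolipid that forms most of the ring. Its log2 signal in WT libraries was 8.46, 8.42, 8.60 and 8.51 at 2 months, 8.53, 8.38 and 8.30 at 4 months, 8.42, 8.37, 8.69 and 8.58 at 6 months and 8.37, 8.25 and 8.24 at 8 months. In rTg4510 libraries it was 8.89, 8.58, 8.97 and 8.64 at 2 months, 9.44, 9.42 and 9.46 at 4 months, 9.55, 9.68, 9.97 and 9.62 at 6 months and 9.51, 9.77 and 9.42 at 8 months. The genotypes overlapped at 2 months, and from 4 months each rTg4510 library lay above each WT library of its age. The limma difference was 0.27 (SE 0.10, adjusted p = 0.128) at 2 months, 1.03 (SE 0.11, adjusted p = 5.78e-07) at 4 months, 1.19 (SE 0.10, adjusted p = 4.81e-09) at 6 months and 1.28 (SE 0.11, adjusted p = 2.62e-08) at 8 months. The signal may not come from this gene alone, since 24.5% (266 of 1084) of the 100-base stretches of its longest coding transcript also occur in the pseudogene Atp6v0c-ps2. The table lists Atp6v0c-ps2 at group means of 12.2 to 12.4 in WT and 12.7 to 13.6 in rTg4510 libraries, with differences of 0.29, 1.08, 1.22 and 1.22 in age order. Reads from the shared stretches cannot be told apart in the table. The linear sum of Atp6v0c, Atp6v0c-ps1 and Atp6v0c-ps2, an alternative chosen after the values were seen, differed by 0.29, 1.08, 1.21 and 1.22. Atp6v0c-ps2, with the highest signal, makes up most of this sum. The sum thus follows the pseudogene and cannot show how Atp6v0c itself differed.

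Atp6v0d2 (Entrez 242341, chr4:19876838-19922566) encodes an isoform of the d subunit, which couples the ring to the central stalk, and is best known from osteoclasts. In WT libraries its log2 signal was 2.61, 1.89, 2.59 and 2.26 at 2 months, 2.14, 2.43 and 2.32 at 4 months, 2.98, 2.66, 3.01 and 2.26 at 6 months and 2.49, 2.68 and 2.14 at 8 months. The rTg4510 libraries gave 2.37, 2.13, 2.37 and 2.71 at 2 months, 3.58, 3.82 and 4.21 at 4 months, 5.02, 4.74, 4.96 and 4.40 at 6 months and 6.12, 6.22 and 6.09 at 8 months. Groups overlapped at 2 months and were apart at each later age, with the rTg4510 libraries of 8 months highest. WT libraries of each age and rTg4510 libraries of 2 months were near the floor, each under 3 times the lowest linear signal of its library. Any difference thus depends on that floor and is given with no size. Its passes of the thresholds are held in the counts of members, and they are not read as a test of this gene. It falls under the 25th percentile of mean signal and has no value where such genes are left out before adjustment.

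Atp6v0a2 (Entrez 21871, chr5:124629052-124724455) encodes an a subunit isoform, the part of V0 past which the ring carries protons, and is known mainly from Golgi and endosomes. WT signals were 7.99, 8.24, 8.14 and 8.18 at 2 months, 8.14, 8.20 and 8.11 at 4 months, 8.14, 8.20, 8.03 and 8.27 at 6 months and 7.89, 8.03 and 8.19 at 8 months. The rTg4510 signals were 8.07, 8.03, 8.01 and 8.09 at 2 months, 7.58, 7.72 and 7.67 at 4 months, 7.38, 7.43, 7.50 and 7.49 at 6 months and 7.26, 7.22 and 7.46 at 8 months. From 4 months each rTg4510 library lay below each WT library of its age, and at 2 months the groups overlapped. The limma differences were -0.09 (SE 0.07, adjusted p = 0.584), -0.50 (SE 0.08, adjusted p = 3.33e-05), -0.71 (SE 0.07, adjusted p = 2.07e-08) and -0.72 (SE 0.08, adjusted p = 2.10e-07) in age order, so the 4-month difference passed the FDR and not the fold. It was called lower at 4 months as well (-0.71) with all 32 libraries. Its exons overlap the antisense gene 4930404A12Rik over 12.4% of their bases, and that gene is not in the table.

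The remaining V0 members were 6. Atp6v0d1, the d isoform of wide expression, was higher by FDR with 0.34, 0.41 and 0.31 at 4, 6 and 8 months, and with all 32 libraries it passed at 6 months alone of these (FDRs of 0.146 and 0.0737 at 4 and 8 months). Atp6v0e, a small subunit of the sector, was higher by 0.54, 0.58 and 0.56, just under 1.5 fold. It passed that fold without rTg4510 replicate 1 (0.62) or WT replicate 1 (0.61) of 4 months, without rTg4510 replicate 1 (0.67) or 4 (0.62) or WT replicate 3 (0.63) or 4 (0.60) of 6 months, without rTg4510 replicate 1 (0.60) or 3 (0.59) or WT replicate 3 (0.62) of 8 months, and with all 32 libraries at 4 months (0.70). Atp6v0a1, Tcirg1 (the a3 isoform of lysosomes and osteoclasts), Atp6v0b (a further ring proteolipid) and Atp6v0e2 did not pass the FDR at any age, with limma differences between -0.17 and 0.43. With a replicate block Atp6v0b passed at 6 months (0.17, adjusted p = 0.0369). The sign of Atp6v0b at 4 months and of Tcirg1 at 6 months turned with quantile normalization.

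The V1 sector holds the catalytic hexamer, the rotor and the stalks. Of its 10 subunits in the table, 5 were called higher at 6 months: Atp6v1a, Atp6v1b2, Atp6v1c1, Atp6v1f and Atp6v1g1. Of all genes 11.3% were called higher at that age. By FDR alone 7 were higher, with Atp6v1d and Atp6v1e1 in addition, beside 19.1% of all genes. With quantile normalization Atp6v1c1 fell to 0.49 and Atp6v1g1 to 0.56 at 6 months, both then under 1.5 fold.

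Atp6v1a (Entrez 11964, chr16:44085402-44139702) encodes the A subunit, which binds and splits ATP. WT libraries gave 6.84, 6.73, 6.95 and 6.89 at 2 months, 7.06, 6.92 and 6.86 at 4 months, 6.97, 6.85, 6.86 and 6.85 at 6 months and 6.84, 7.06 and 6.93 at 8 months. For rTg4510 the values were 7.05, 6.89, 7.0 and 7.21 at 2 months, 7.77, 7.56 and 7.78 at 4 months, 7.83, 7.69, 7.90 and 7.83 at 6 months and 7.98, 8.09 and 7.89 at 8 months. The 2-month groups overlapped, and the rTg4510 libraries of 4, 6 and 8 months lay above all WT libraries of the same age. In limma the differences were 0.19 (SE 0.07, adjusted p = 0.172), 0.76 (SE 0.08, adjusted p = 6.11e-07), 0.93 (SE 0.07, adjusted p = 1.96e-09) and 1.05 (SE 0.08, adjusted p = 6.73e-09). No 100-base stretch of its transcripts occurs in another gene of the annotation.

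Atp6v1b2 (Entrez 11966, chr8:69088736-69113718) encodes the B subunit found in most cells, which alternates with A in the hexamer. Signals in WT were 6.67, 6.37, 6.45 and 6.70 at 2 months, 6.41, 6.63 and 6.70 at 4 months, 6.64, 6.49, 6.62 and 6.71 at 6 months and 6.35, 6.57 and 6.53 at 8 months. In rTg4510 they were 6.82, 6.76, 6.80 and 6.66 at 2 months, 7.22, 7.25 and 7.34 at 4 months, 7.43, 7.35, 7.60 and 7.47 at 6 months and 7.24, 7.26 and 7.47 at 8 months. As with the A subunit, overlap was seen at 2 months and at no later age. The limma differences were 0.21 (SE 0.08, adjusted p = 0.173), 0.69 (SE 0.09, adjusted p = 1.06e-05), 0.85 (SE 0.08, adjusted p = 4.04e-08) and 0.84 (SE 0.09, adjusted p = 5.89e-07).

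Atp6v1f (Entrez 66144, chr6:29467783-29470509) encodes the F subunit of the central rotor. The WT values were 7.67, 7.67, 7.64 and 7.48 at 2 months, 7.53, 7.35 and 7.60 at 4 months, 7.48, 7.76, 7.99 and 7.50 at 6 months and 7.55, 7.59 and 7.44 at 8 months. The rTg4510 values were 7.96, 8.00, 8.09 and 7.93 at 2 months, 8.23, 8.49 and 8.21 at 4 months, 8.36, 8.12, 8.83 and 8.45 at 6 months and 8.06, 8.28 and 8.05 at 8 months. The rTg4510 libraries were above the WT libraries at each of the 4 ages. The limma differences were 0.38 (SE 0.12, adjusted p = 0.0821), 0.82 (SE 0.14, adjusted p = 1.68e-04), 0.76 (SE 0.12, adjusted p = 4.60e-05) and 0.60 (SE 0.14, adjusted p = 0.00280). The 8-month call was lost without rTg4510 replicate 2 (0.53) or WT replicate 3 (0.56) and with quantile normalization (0.52). The excluded rTg4510 library of 4 months held 5.06, and with all 32 libraries the 4-month difference turned to -0.07, with 0.76 at 6 months and 0.53 at 8 months no longer passing the FDR.

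Atp6v1c1, which joins V1 to V0 when the pump assembles, differed by 0.28 (SE 0.06, adjusted p = 0.00558) at 2 months in limma, with no overlap between the 4 libraries of each genotype, and an FDR of 0.282 when all 32 libraries were fitted. Its 6-month difference of 0.61 (SE 0.06, adjusted p = 6.33e-08) stood just over 1.5 fold and was 0.56 without rTg4510 replicate 4 and 0.58 without WT replicate 3 of that age. With all 32 libraries it was called at 4 months as well (0.69). Atp6v1g1, a peripheral stalk subunit, differed by 0.32 (SE 0.08, adjusted p = 0.0136), 0.46 (SE 0.09, adjusted p = 5.22e-04), 0.70 (SE 0.08, adjusted p = 2.80e-07) and 0.63 (SE 0.09, adjusted p = 1.10e-05) in limma, and its libraries did not overlap at any of the 4 ages. With quantile normalization its 8-month difference was 0.50, under 1.5 fold. Of its 100-base stretches 7.34% also occur in other genes, most in the pseudogene Gm13453, which the table lists with differences of 0.39, 0.75 and 0.63 at 4, 6 and 8 months. Reads from these stretches cannot be told apart in the table.

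The other V1 members were 5. Atp6v1d, of the rotor, differed by 0.39 (SE 0.10, adjusted p = 0.00543) at 6 months and 0.54 (SE 0.12, adjusted p = 0.00133) at 8 months in limma, and by 0.66 at 8 months, over 1.5 fold, without WT replicate 3. Atp6v1e1, of the peripheral stalk, reached 0.23 (SE 0.08, adjusted p = 0.0276) at 6 months and 0.24 (SE 0.09, adjusted p = 0.0493) at 8 months. The 8-month FDR of Atp6v1e1 was 0.0520 after quantile normalization, 0.0528 with a replicate block, 0.0668 with moderated variance and 0.497 with all 32 libraries. Atp6v1h, a regulatory subunit, passed the FDR at 4 months with 0.24 (SE 0.08, adjusted p = 0.0245) and did not with a replicate block (adjusted p = 0.0640). The 6-month FDRs of Atp6v1d and Atp6v1e1 were 0.0572 and 0.406 with all 32 libraries, and at 4 months Atp6v1d then passed (0.41, adjusted p = 0.0385). Atp6v1c2 and Atp6v1g2, isoforms of C and G, had negative differences at all 4 ages, from -0.48 to -0.09, and did not pass the FDR at any. Atp6v1g2 was called lower at 4 months (-1.04) when all 32 libraries were fitted. In that fit Atp6v1c2 turned positive and Atp6v1e1 negative at 4 months.

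The accessory subunits are glycoproteins bound to V0. Atp6ap1 was higher in rTg4510 microglia, with limma differences of 0.42 (SE 0.08, adjusted p = 5.06e-04) at 4 months, 0.48 (SE 0.07, adjusted p = 1.04e-05) at 6 months and 0.43 (SE 0.08, adjusted p = 3.25e-04) at 8 months, and its libraries did not overlap at these ages. Atp6ap2, also known as the prorenin receptor, passed the FDR at 6 months with 0.34 (SE 0.08, adjusted p = 0.00121), at 8 months with a replicate block (0.21, adjusted p = 0.0255) and at 4 months with all 32 libraries (0.34, adjusted p = 0.0337). Atp6ap1 was 0.27, 0.30 and 0.27 after quantile normalization, still past the FDR, and with all 32 libraries its FDRs were 0.229 at 4 months and 0.0815 at 8 months. Neither exceeded 1.5 fold at any age.

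Of the membrane glycoproteins and receptors, Lamp1 was called higher from 4 months on and Lamp2 was higher by FDR below 1.5 fold, a direction that quantile normalization turned at 8 months. Lamp1 and Lamp2 make up much of the protein of the lysosomal membrane. Scarb2, the receptor that carries glucocerebrosidase to lysosomes, was lower by FDR at 6 months in the deposited scaling and at all 4 ages after quantile normalization.

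Lamp1 (Entrez 16783, chr8:13159161-13175338) had signals of 10.49, 10.56, 10.54 and 10.58 at 2 months, 10.51, 10.46 and 10.30 at 4 months, 10.55, 10.49, 10.65 and 10.59 at 6 months and 10.32, 10.39 and 10.46 at 8 months in WT libraries. The rTg4510 libraries held 10.80, 10.80, 10.88 and 10.81 at 2 months, 11.19, 11.36 and 11.36 at 4 months, 11.49, 11.45, 11.62 and 11.49 at 6 months and 11.31, 11.36 and 11.30 at 8 months. The genotypes did not overlap at any age. Its differences in limma were 0.28 (SE 0.05, adjusted p = 7.06e-04), 0.88 (SE 0.06, adjusted p = 2.69e-10), 0.94 (SE 0.05, adjusted p = 4.37e-12) and 0.93 (SE 0.06, adjusted p = 9.45e-11). With quantile normalization they were 0.10, 0.50, 0.48 and 0.50, under 1.5 fold at each age, with FDRs of 0.0867, 9.60e-09, 8.53e-10 and 5.32e-09, so that the 2-month difference no longer passed. Nor did it pass with all 32 libraries (adjusted p = 0.808). Its exons overlap those of the antisense gene Grtp1 over 7.94% of their bases. In age order Grtp1 differed by -0.15, 0.14, -0.15 and 0.22, with FDRs of 0.936, 0.889, 0.832 and 0.810 in limma.

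Lamp2, of which a splice form is the receptor of chaperone-mediated autophagy, differed by 0.01 (SE 0.05, adjusted p = 0.949), 0.48 (SE 0.06, adjusted p = 1.25e-06), 0.55 (SE 0.05, adjusted p = 1.12e-08) and 0.39 (SE 0.06, adjusted p = 1.42e-05) in limma. After quantile normalization the differences at 4, 6 and 8 months were 0.07, 0.07 and -0.03, with FDRs of 0.484, 0.362 and 0.744, and the sign at 2 months turned as well (-0.17). The direction of Lamp2 at 2 and 8 months thus rested on the scaling. Scarb2 differed by -0.16 (SE 0.05, adjusted p = 0.0214) at 6 months, and did not pass there with moderated variance (adjusted p = 0.0550) or all 32 libraries (adjusted p = 0.262). After quantile normalization it differed by -0.18, -0.14, -0.27 and -0.23 in age order, with FDRs of 0.0156, 0.0453, 4.54e-05 and 0.00169.

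**Figure D2:**
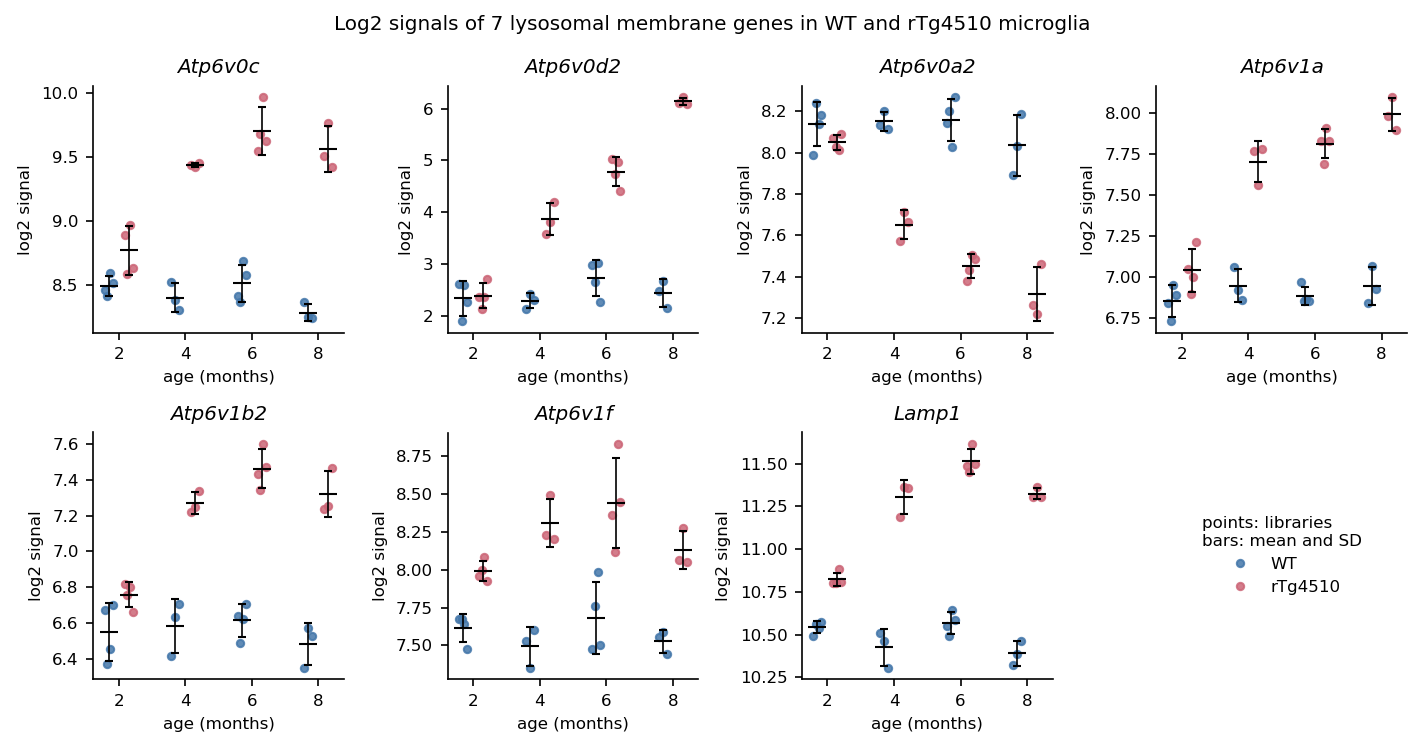
Log2 signal (y axis) of 7 members in each of the 28 libraries (points) against age in months (x axis), with bars for the mean and SD of each genotype. At 4, 6 and 8 months the rTg4510 libraries lay above the WT libraries for 6 members and below them for Atp6v0a2. Atp6v0d2 is among those above, with WT libraries near the floor at each age, and is shown as a description. For Atp6v0c at 4 months the rTg4510 values were 9.44, 9.42 and 9.46 against WT values of at most 8.53. With the excluded libraries Atp6v1f turned to -0.07 at 4 months.

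Among the 7 channels and transporters 0 were called in limma at 6 months, and 5 were higher at that age by FDR alone as by an unadjusted p under 0.05, which 22.5% of all genes reached in that direction. Mcoln1, a cation channel that releases calcium from lysosomes, differed by 0.40 at 4 months, 0.30 at 6 months and 0.34 at 8 months, each past the FDR. Clcn7, which exchanges chloride for protons, differed by 0.37, 0.32 and 0.45. Neither passed the FDR at any age with all 32 libraries, and the 4-month differences fell to 0.08 for Mcoln1 (adjusted p = 0.812) and 0.06 for Clcn7 (adjusted p = 0.831). Its partner subunit Ostm1 passed at 6 months (0.35) and 8 months (0.37), the latter with an FDR of 0.100 in all 32 libraries. Cln3, whose loss causes juvenile Batten disease, passed at 6 months with 0.37 (SE 0.10, adjusted p = 0.00490) in limma, and its exons overlap those of Apobr over 13.2% of their bases. Lmbrd1, needed for the export of cobalamin, passed at 6 months with 0.19 (SE 0.07, adjusted p = 0.0411). It did not pass there after quantile normalization (adjusted p = 0.118), with a replicate block (adjusted p = 0.0602), with moderated variance (adjusted p = 0.0619) or with all 32 libraries (adjusted p = 0.108). Ctns, the cystine exporter, and Sidt2 did not pass at any age and lay between -0.11 and 0.14.

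Of the 5 LAPTM and other proteins 0 were called in limma at any age. With an unadjusted p under 0.05 there were 2 lower at 2 months, Laptm4a and Tmem192, and at 6 months 1 higher, Laptm4b, and 1 lower, Atp6v1fnb (20.5% of all genes were lower). Laptm4b passed the FDR at 6 months with 0.33 (SE 0.12, adjusted p = 0.0356), and not with all 32 libraries (adjusted p = 0.136). Laptm4a, Laptm5 and Tmem192 did not pass at any age, with differences between -0.39 and 0.26. After quantile normalization Laptm4a passed the FDR, lower, at 2 months (-0.28, adjusted p = 0.00709) and 8 months (-0.26, adjusted p = 0.00837), and with all 32 libraries Tmem192 passed, higher, at 8 months (0.53, adjusted p = 0.0259). The signs of Laptm4a at 4 and 6 months and of Laptm5 at 6 and 8 months turned with quantile normalization. With all 32 libraries the signs of Laptm4a, Laptm5, Scarb2 and Sidt2 at 4 months turned as well. Atp6v1fnb, named for its place beside Atp6v1f and not known as a subunit, had the widest spread of the 36 members (residual SD 0.76) and differed by -1.27 (SE 0.54, adjusted p = 0.0751) at 6 months in limma. Without rTg4510 replicate 3 of 6 months it was called lower at -1.66. Of its 100-base stretches 12% also occur in Kcp, which differed by -0.79 (SE 0.13, adjusted p = 6.72e-05) at 6 months and -0.86 (SE 0.15, adjusted p = 1.74e-04) at 8 months. Residual SDs of the other members ran from 0.07 for Lamp1 to 0.46 for Atp6v1c2.

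Whether the genotype difference grew between neighbouring ages was tested by interaction contrasts. Between 2 and 4 months it grew for Atp6v0c and Lamp1, the 2 members called higher in limma (3.77% of all genes) other than Atp6v0d2, while 0 were called lower (0.893%). Atp6v0d2 passed both thresholds too, but it was near the floor in 3 of the 4 groups compared, so its growth is not given. At an unadjusted p under 0.05 the members, Atp6v0d2 among them, were 16 higher and 1 lower (11.2% and 8.39% of all genes). By FDR alone 7 were higher (5.26%), again with Atp6v0d2, and 1 lower (2.08%). The growth was 0.60 (SE 0.07, adjusted p = 2.22e-05) for Lamp1 and 0.76 (SE 0.15, adjusted p = 0.00315) for Atp6v0c. Among those past the FDR alone were Atp6v1a with 0.57, Atp6v1b2 with 0.48, Lamp2 with 0.47, Mcoln1 with 0.40 and, in the other direction, Atp6v0a2 with -0.41. The median growth was 0.21 over the members and -0.03 over all genes. The growth of Atp6v0c (0.83) and Lamp1 (0.55) in all 32 libraries no longer passed the FDR, with adjusted p of 0.0570 and 0.225 in limma, and neither did Mcoln1 (0.08, adjusted p = 0.914) or Atp6v0a2 (-0.62, adjusted p = 0.0928). Atp6v1a (0.92) and Atp6v1b2 (0.59) were then called. With quantile normalization Lamp1 gave 0.40, under 1.5 fold, and Lamp2 gave 0.23 (adjusted p = 0.0832).

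Between 4 and 6 months 0 members were called in limma in either direction, where 0.0377% of all genes were called higher and 0.118% lower. An unadjusted p under 0.05 was reached by 1 member higher, Laptm4b, and 1 lower, Atp6v0a2, beside 4.12% and 4.02% of all genes. Between 6 and 8 months 0 members were called in limma, and 0% of all genes were called in either direction. There the unadjusted p was under 0.05 for Lamp2, lower, beside 1.79% of all genes lower and 2.73% higher. Atp6v0d2 is left out, since its WT libraries of both ages were near the floor.

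In WT microglia, 8 months was compared with 2 months to see age alone. By FDR alone 1 member was higher, Atp6v1c1 with 0.27 (SE 0.07, adjusted p = 0.0230), and 1 lower, Ostm1 with -0.31 (SE 0.08, adjusted p = 0.0351), in limma. Of all genes 0.818% were higher and 3.39% lower. Neither passed with all 32 libraries (adjusted p of 0.532 and 0.696), and Ostm1 did not with moderated variance (adjusted p = 0.0512). With an unadjusted p under 0.05 the members were 1 higher and 7 lower, beside 5.99% and 13.2% of all genes.

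Paralogs that can take the same place in a complex or membrane were compared as differences within each library, which a common scaling factor cannot move. Of 9 pairs listed 8 were in the table and 7 were tested, each over 28 libraries by an exact two-sided permutation test of genotype within age, with Benjamini-Hochberg adjustment over the 7. The difference shifted with genotype for 4 pairs: Atp6v0a2 and Atp6v0a1, Atp6v1g2 and Atp6v1g1, Atp6v1c2 and Atp6v1c1, and Lamp2 and Lamp1. In each the isoform named first was lower relative to the other in rTg4510 than in WT microglia.

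Atp6v0a2 minus Atp6v0a1 averaged 0.63, 0.60, 0.49 and 0.40 in WT and 0.72, 0.11, -0.18 and -0.29 in rTg4510 libraries at 2, 4, 6 and 8 months, and the genotypes did not overlap at the last 3 ages. The mean shift was -0.44 (permutation p = 1.12e-04, adjusted p = 2.62e-04). Atp6v1g2 minus Atp6v1g1 averaged -2.72, -3.29, -2.57 and -3.13 in WT and -3.52, -4.22, -3.66 and -3.93 in rTg4510 libraries. No overlap was seen at any of the 4 ages, and the mean shift was -0.90 (permutation p = 1e-06, the smallest that the permutations can give, adjusted p = 3.57e-06). Lamp2 minus Lamp1 averaged 0.25, 0.35, 0.23 and 0.33 in WT and -0.01, -0.05, -0.16 and -0.21 in rTg4510 libraries, again with no overlap at the 4 ages. Its mean shift was -0.40 (permutation p = 1e-06, the smallest possible, adjusted p = 3.57e-06). For Atp6v1c2 minus Atp6v1c1 the mean shift was -0.68 (permutation p = 0.00128, adjusted p = 0.00225), with overlap at 3 of the 4 ages. Atp6v1c2, which lay under the 25th percentile of mean signal, did not itself pass the FDR at any age. Atp6v1c1 was higher by FDR at each age.

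Tcirg1 minus Atp6v0a1 shifted by 0.11 (permutation p = 0.0564, adjusted p = 0.0790), a value that ran from 0.09 to 0.13 when single libraries were left out and passed the threshold without rTg4510 replicate 4 of 2 months (0.13), rTg4510 replicate 4 of 4 months (0.13), rTg4510 replicate 3 of 8 months (0.13) or WT replicate 1 of 2 months (0.12). Atp6v0e2 minus Atp6v0e shifted by -0.16 (permutation p = 0.209, adjusted p = 0.244). Laptm4b minus Laptm4a shifted by -0.02 (permutation p = 0.824, adjusted p = 0.824) and by 0.19 after quantile normalization (adjusted p = 0.0222). Atp6v0d2 minus Atp6v0d1 is given without a test, because Atp6v0d2 was near the floor in 5 of 8 groups. It averaged -4.48, -4.60, -4.08 and -4.44 in WT and -4.56, -3.36, -2.43 and -1.04 in rTg4510 libraries.

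**Figure D3:**
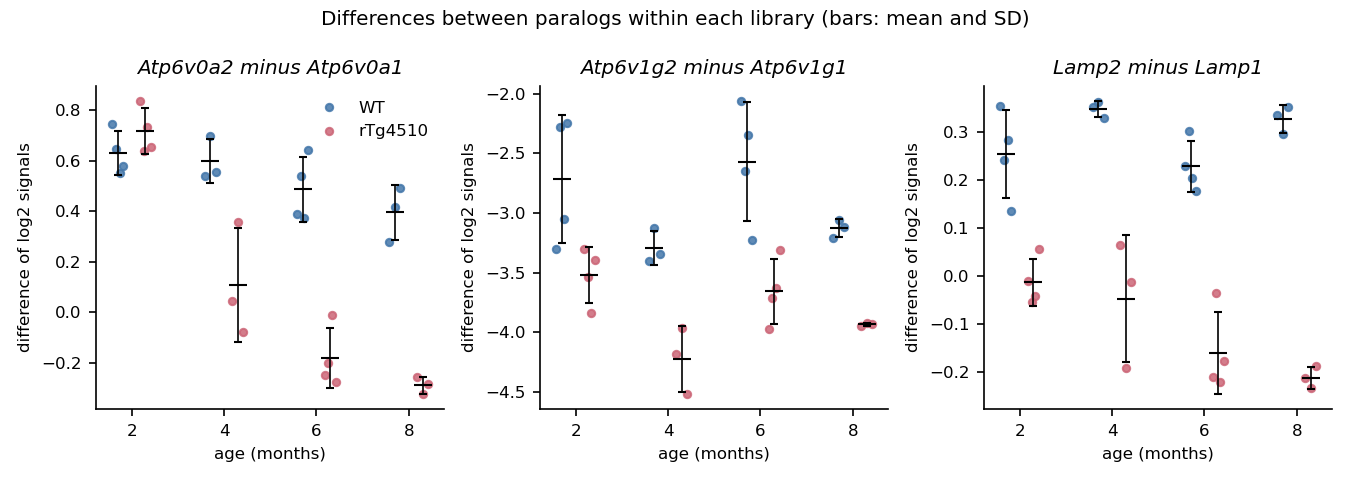
Difference of log2 signals between paralogs within each library (y axis, points) against age in months (x axis) in WT and rTg4510 microglia, with bars for the mean and SD. Lamp2 minus Lamp1 and Atp6v1g2 minus Atp6v1g1 were lower in each rTg4510 group than in WT at all 4 ages, and Atp6v0a2 minus Atp6v0a1 from 4 months on.

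Proteins that assemble the pump or work beside it were read from lists. Of 14 assembly factors and regulators of the vacuolar ATPase, limma called 1 at 6 months (7.14%, where 11.3% of all genes were called higher), with medians of -0.13, 0.06 and 0.04 at 4, 6 and 8 months. It was Tmem9, a protein bound to the pump, with 0.66 (SE 0.19, adjusted p = 0.0113) at 6 months. By FDR alone 2 were higher and 1 lower at 6 months, with Tmem9b at 0.33 and Rogdi at -0.19.

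The lysosomal platform of mTORC1, a kinase that the pump helps to activate when amino acids are at hand, had 13 of 14 listed genes in the table, and Rragb was not analysed here. Of the 13, limma called 3, 4 and 4 higher at 4, 6 and 8 months, where 9.47%, 11.3% and 10.5% of all genes were, with medians of 0.28, 0.44 and 0.30. Rragd, a Rag GTPase, differed by 2.39 (SE 0.27, adjusted p = 3.18e-07) at 6 months and Rragc by 0.71 (SE 0.08, adjusted p = 2.68e-07). The folliculin partners Fnip2 and Fnip1 differed by 1.07 (SE 0.07, adjusted p = 1.31e-10) and 0.44 (SE 0.07, adjusted p = 3.13e-05), of which the latter was under 1.5 fold.

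Of 32 other lysosomal membrane proteins 30 were in the table, and Mcoln3 and Lamp5 were not analysed here. Of the 30, limma called 6, 7 and 8 higher and 2, 1 and 1 lower at 4, 6 and 8 months, with medians of -0.02, 0.08 and 0.14. Of all genes 9.47%, 11.3% and 10.5% were called higher and 4.33%, 8.54% and 5.37% lower. The tetraspanin Cd63 differed by 2.48 (SE 0.08, adjusted p = 3.28e-15) at 6 months. Slc11a1, a metal transporter of phagosomes, differed by 1.07 (SE 0.07, adjusted p = 2.01e-10), and Cd68, a macrophage glycoprotein of the Lamp family, by 1.12 (SE 0.08, adjusted p = 8.38e-10). Cd164, a sialomucin, was lower with -1.20 (SE 0.08, adjusted p = 1.26e-10).

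Of the 4 MiT/TFE factors, which drive transcription of lysosomal genes, 1 was called higher at 4, 6 and 8 months. It was Mitf, with 0.78 (SE 0.07, adjusted p = 8.13e-09) at 6 months in limma. For comparison, 15, 16 and 16 of 32 luminal hydrolases were called higher at 4, 6 and 8 months (medians 0.53, 0.60 and 0.56), and 8 of 12 cathepsins at each of these ages (medians 0.75, 0.93 and 0.86), beside 9.47%, 11.3% and 10.5% of all genes. By FDR alone 22, 23 and 24 hydrolases were higher and 3, 3 and 2 lower, and 10, 10 and 9 cathepsins were higher, beside 14.1%, 19.1% and 16% of all genes higher and 9.1%, 14.9% and 9.78% lower.

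The promoters of the members were read in RefSeq (GRCm38.p6), from 250 bases before to 50 bases after the start, with an entry for 29 of 36 members. The palindrome CACGTG was in 8 of the 29 (27.6%), beside 11.2% of 11108 protein-coding genes of the table and 8.09% of 27025 genes with a promoter. The 8 were Atp6v0b, Atp6v0d1, Atp6v0e, Atp6v1a, Clcn7, Cln3, Lamp1 and Mcoln1. TCACGTGA, which contains CACGTG, was in 6 (20.7%), beside 1.99% and 1.12%. TCATGTG, searched on both strands, was in 3 (10.3%), beside 2.78% and 4.31%. Among the hydrolases the shares were 23.1%, 3.85% and 19.2% of 26, and among the cathepsins 44.4%, 22.2% and 22.2% of 9. A match describes these letters in the window and is not a site of binding.

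The stretch before the start of Lamp1 held 4 copies of CACGTG, that of Atp6v0b 2, that of Mcoln1 both motifs, and that of Scarb2 the reverse complement of TCATGTG. They are printed from RefSeq, 5′ to 3′ on the strand of the gene, with the matches in capitals, to show a member that was called higher (Lamp1) beside 3 that were not.
Lamp1, chr8:13159080-13159160, plus strand: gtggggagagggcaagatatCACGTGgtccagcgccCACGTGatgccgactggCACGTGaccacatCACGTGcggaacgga
Mcoln1, chr8:3500428-3500500, plus strand: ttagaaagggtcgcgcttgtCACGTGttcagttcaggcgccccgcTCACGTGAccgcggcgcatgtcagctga
Atp6v0b, chr4:117887334-117887385, minus strand: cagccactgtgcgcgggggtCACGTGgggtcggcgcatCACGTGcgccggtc
Scarb2, chr5:92505663-92505709, minus strand: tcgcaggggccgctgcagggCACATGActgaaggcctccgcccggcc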

How the data were processed

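Microglial RNA was read as paired-end fragments after cDNA synthesis with an Ovation kit. The deposited values are log2 signals, which the authors made by fitting a robust linear model over those exons of a gene that had enough reads, and then bringing the libraries to a common median. The strand of the libraries is not stated. Entrez IDs were matched to RefSeq (GRCm38.p6), 95.9% of them. Signals of 28 libraries were fitted in limma 3.58.1 (R 4.3.3) with 8 group means, ordinary variance and 20 residual degrees of freedom, and tested on simulated data. Paralog pairs were tested in Python 3.11.15 (numpy 2.4.6) over 1960000 permutations.

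Members and lists were chosen with earlier results of these data known. Members given library by library were, within each role, up to 3 with the largest mean absolute difference at 4 to 8 months among those called, plus any called at 2 months or called lower. From other lists up to 4 genes with the smallest FDR at 6 months were named. Marker genes, genes sharing sequence with a member and genes falling under counts of 5 or fewer were named after their values were seen. Alternatives were all 32 libraries, quantile normalization, moderated variance, only the 2 groups of an age, a filter at the 25th percentile of mean signal, which 33 of 36 members passed, FDR alone, a replicate block, and each library left out in turn.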

Additional observations from a re-analysis of the deposited data

Results flagged for a closer look

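In groups of 4 libraries, 2 of 36 held a library far from the other 3, where chance gives about 1 in 20. For Atp6v1a, WT replicate 1 of 6 months lay highest at 6.97, with a gap to the next of 0.873 of the range. For Lamp1, rTg4510 replicate 3 of 2 months lay highest at 10.88, with a gap of 0.943 of the range.

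The genotype difference at 4 months differed from that at 2 months, by an interaction contrast in limma with Benjamini-Hochberg adjustment, for 7 members, 6 higher and 1 lower, beside 5.26% and 2.08% of all genes. The adjusted p was 2.22e-05 for Lamp1, 0.000438 for Lamp2, 0.00268 for Atp6v1a and 0.00315 for Atp6v0c. It was 0.0141 for Atp6v0a2, 0.0224 for Atp6v1b2 and 0.0262 for Mcoln1. The change was negative for Atp6v0a2 and positive for the other 6. Atp6v0d2 is left out, since it was near the floor in 3 of the 4 groups compared. With all 32 libraries the adjusted p was 0.05 or more for Lamp1, Atp6v0c, Atp6v0a2 and Mcoln1, and after quantile normalization for Lamp2.

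The excluded rTg4510 libraries of 4 and 8 months were read beside all WT libraries of their age, the excluded ones included, for 9 members. These members were chosen among those called. The share of all genes was not read in the same way, so the values are given as a description. In replicate 3 of 4 months Atp6v0c stood at 10.17, Atp6v1a at 8.46, Atp6v1b2 at 7.87, Atp6v1c1 at 8.69 and Lamp1 at 11.84. The highest WT signals of that age were 8.85, 7.06, 6.73, 7.79 and 11.16 in the same order. Atp6v0d2, at 2.51, was near the lowest signal of that library, 2.04, and was not compared. In replicate 4 of 8 months Atp6v0c stood at 9.89, Atp6v0d2 at 5.85, Atp6v1a at 7.80, Atp6v1b2 at 7.32, Atp6v1c1 at 7.99, Atp6v1f at 7.98 and Lamp1 at 11.92. There the highest WT signals were 9.04, 2.68, 7.06, 6.63, 7.83, 7.69 and 11.06. Atp6v0a2 lay below all WT libraries in both, at 6.64 and 7.11. Atp6v1f stood at 5.06 in the 4-month library, below the lowest WT signal of 7.35. Atp6v1g1, at 8.15 and 8.11, was within the WT signals, which reached 8.35 and 8.15.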

How the results depend on the processing

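Among 9 members followed through each alternative, 1237 genotype differences stayed on their side of the threshold for a call or had no value. Another 9 gained a call, 13 lost it and 1 reversed. Those with no value were of Atp6v0d2 under the filter at the 25th percentile, which ended its calls at 4, 6 and 8 months. The 1 that reversed was Atp6v1f at 4 months, at -0.066 with all 32 libraries. Of their changes between ages 102 stayed on their side, 2 gained a call and 4 lost it. With all 32 libraries 2 members were called lower at 4 months, and the share of all genes called was not read there. In that fit 8.86% of all genes were lower by FDR alone. Quantile normalization left 5 called higher at 4 and at 6 months and 4 at 8 months, beside 8.84%, 10.7% and 10.4% of all genes. It moved Laptm4b minus Laptm4a to 0.19. By FDR alone 3, 15, 21 and 17 members were higher in age order, beside 4.76%, 14.1%, 19.1% and 16% of all genes. By that rule 1 and 2 were lower at 4 and 6 months, beside 9.1% and 14.9%. Leaving out each library in turn gave 6 to 7 members called higher at the age of 4 months, 8 to 9 for 6-month and 6 to 8 for 8-month libraries, 1 to 2 called lower at 6 months, and 0.089 to 0.134 for Tcirg1 minus Atp6v0a1. The share of all genes called was not read with a library left out. Of the values over paralogs, 212 were on the same side of the threshold and 5 gained it. The cause of these changes was not tested.

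Quantile normalization moved the median of all genes by under 0.1 at each age, and the share of higher genes among all calls at 2 months from 79.6% to 68.3%. Deviations from the group mean in same-numbered libraries correlated across genes by 0.0649 to 0.167 (2 months), -0.0999 to 0.124 (4 months), 0.131 to 0.153 (6 months) and 0.15 to 0.291 (8 months of age), beside -0.194 to 0.0816, -0.0709 to 0.154, -0.127 to 0.0913 and -0.259 to -0.0281 in libraries of unlike number, and genes are not independent replicates. The labels do not say whether such libraries were prepared together. A replicate block changed no call of the 36 members, moderated variance and fits of only the 2 groups of an age changed none either. By FDR alone the block ended 3 passes (Atp6v1h, Lmbrd1 and Atp6v1e1) and added 2 (Atp6v0b and Atp6ap2), and with the block Atp6v0c differed by 1.19 at 6 months. The table gives no depth by library, so what depth limits could not be given. Reads from the stretches that Atp6v0c and Atp6v1g1 share with pseudogenes cannot be told apart.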
